A study of Mus musculus with 6 samples.

Results

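Integrins are the cell's adhesion receptors, and podosomes are the actin-rich contacts through which osteoclasts and macrophages hold on to a surface. The genes described here are those whose symbol begins with Itga or Itgb, together with a list of 25 names of proteins that build or regulate podosomes. Each gene was represented by 1 probe set annotated to it alone, the one with the highest mean over all arrays. This gave 51 genes of 18193 measured, of which 29 came from the symbol pattern and 22 from the list. Of the 29, 25 encode integrin subunits and 4 (Itgb1bp1, Itgb1bp2, Itgb3bp and Itgbl1) carry a similar symbol without being subunits. The listed names Ptk2 and Actr2 were not analysed here, and Tks5 is another name of the product of Sh3pxd2a, which was on the list under its own symbol.

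RAW264.7 cells are mouse macrophage-like cells that can fuse into osteoclast-like cells when given RANKL. They spent 24 hours at a sodium concentration of 120 mmol/l, in a medium diluted from the normal medium and brought to an osmolality of 290 mOsm/l with mannitol (low sodium, 3 arrays), or at 137 mmol/l (normal sodium, 3 arrays). The osmolality is listed as 290 mOsm/l for both media. The cytokines M-CSF (10 ng/ml) and RANKL (30 ng/ml) appear in the protocol in a wording that does not settle whether both media held them. The labels speak of 4 biological replicates per medium, of which 3 per medium were analysed here, and all come from this 1 cell line. The comparison asked which integrin and podosome genes differ in expression between the media.

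An integrin is a pair of 1 alpha and 1 beta subunit, and the pairing decides which ligand is bound. Talin and kindlin bind the tail of the beta subunit and switch the receptor on, and adaptor proteins such as vinculin and paxillin then link it to actin. In osteoclasts podosomes gather into the sealing zone, the ring that closes off the bone surface under the cell, and the kinases Src and Pyk2 with their partners Cbl and Vav3 govern how these contacts are built and taken down. The vitronectin receptor, alpha v paired with beta 3, is the integrin best known from mature osteoclasts, whereas macrophages carry the leukocyte integrins with beta 2.

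The promoters of Itgax, Itgb7, Itga5 and Itga4 are shown because these 4 genes had the largest differences among the integrin genes called further on. Each line is the 250 bases before a RefSeq start on GRCm38.p6, read 5′ to 3′ on the strand of the gene. Capitals mark matches on either strand to the PU box GAGGAA, the AP-1 motif TGANTCA or the GC box GGGCGG, and none of the matches shown overlaps one of another motif. The windows are Itgax on chr7:128129300-128129549 (plus strand), Itgb7 on chr15:102231936-102232185 (minus strand), Itga5 on chr15:103366792-103367041 (minus strand) and Itga4 on chr2:79255176-79255425 (plus strand).
Itgax: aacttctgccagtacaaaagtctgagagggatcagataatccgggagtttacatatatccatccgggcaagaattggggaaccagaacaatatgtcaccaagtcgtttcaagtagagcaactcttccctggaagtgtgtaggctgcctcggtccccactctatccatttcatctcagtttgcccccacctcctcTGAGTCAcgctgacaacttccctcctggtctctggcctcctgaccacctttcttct
Itgb7: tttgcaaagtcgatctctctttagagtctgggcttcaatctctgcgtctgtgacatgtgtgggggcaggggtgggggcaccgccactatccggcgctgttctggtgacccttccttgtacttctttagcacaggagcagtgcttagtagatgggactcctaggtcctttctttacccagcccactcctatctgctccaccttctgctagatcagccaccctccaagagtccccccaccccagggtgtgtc
Itga5: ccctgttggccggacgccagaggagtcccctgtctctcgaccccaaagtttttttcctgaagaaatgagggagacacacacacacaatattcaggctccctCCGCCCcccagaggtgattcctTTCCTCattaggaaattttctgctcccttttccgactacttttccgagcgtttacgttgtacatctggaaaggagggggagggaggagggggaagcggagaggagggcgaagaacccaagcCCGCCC
Itga4: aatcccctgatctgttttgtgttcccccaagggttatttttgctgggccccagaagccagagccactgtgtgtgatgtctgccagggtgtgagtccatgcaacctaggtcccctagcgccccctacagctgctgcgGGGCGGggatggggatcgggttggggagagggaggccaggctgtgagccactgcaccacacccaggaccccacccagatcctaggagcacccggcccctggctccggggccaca

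The Itgax window held 1 AP-1 match ending 49 bases before the start, a motif found in 6.75% of all 32851 RefSeq windows of this length. The Itga5 window held 1 PU box, found in 23.3% of all windows, and 2 GC boxes, found in 32.7%. The Itga4 window held 1 GC box, and the Itgb7 window held none of the 3 motifs. Of 9 members called further on, 8 had an entry in the promoter table, with 10 windows among them, and 0 of the 10 held a CArG box, the motif bound by serum response factor, which 1.47% of all windows hold. A match is a run of letters and no evidence of binding.

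The arrays of replicate 3 stood apart from the other 4. Spiked bacterial transcripts that monitor labelling averaged log2 intensities of 10.16, 10.31 and 8.36 on the low-sodium arrays of replicates 1, 2 and 3, against 10.04, 10.33 and 8.36 on the normal-sodium arrays. Hybridisation controls lay between 12.02 and 12.29 on the 6 arrays. Differences are therefore given per replicate number as well, and their link to labelling was not tested. The median signal over all probe sets was a log2 intensity of 6.03. All 8 macrophage markers checked reached it in the medium with their higher mean, as did 7 of 8 osteoclast markers, Calcr being the exception. Of the markers of other cell types, 1 of 7 for fibroblasts, 1 of 5 for T cells, 1 of 3 for B cells, 3 of 5 for neutrophils, 1 of 4 for megakaryocytes, 1 of 4 for endothelium and 2 of 4 for epithelium did so.

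Among the integrin genes Itgax, Itgb2, Itgb7 and Itga5 were higher in low sodium and Itga4 was lower, and among the podosome genes Src, Actn1, Gsn and Tln1 were higher. These 9 calls come from a second fit and none from the first. By the planned limma test, the first fit, 0 of the 51 genes passed an adjusted p of 0.05, as did 0.00550% of all genes, which is 1 of 18193. At an unadjusted p under 0.05 that fit gave 8 of the 51 (15.7%, against 8.15% of all genes), 7 of them higher in low sodium (4.29% of all genes) and 1 lower (3.86%). Run only on genes with a mean over the 6 arrays at or above that of the median gene, it gave 8 of 35 members, against 16.2% of genes. A second limma fit with a term for replicate 3 and a trended variance prior called 9 of the 51 (17.6%, against 7.60% of all genes), 8 of them higher (3.78% of all genes) and 1 lower (3.81%). Among genes whose mean over the 6 arrays was at or above that of the median gene, a split that ignores the media, the second fit called 8 of 35 members (22.9%) and 14.8% of genes, with 7 members higher (20.0%, against 7.31% of genes). On the arrays of replicates 1 and 2, with a trended prior, 16 members were called (31.4%, against 14.9% of all genes), 15 higher (29.4%, against 7.27%) and 1 lower (7.60% of all genes).

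The second fit had been chosen in earlier work with call counts in view, and its p-values do not carry the weight of a planned test. In what follows "rose" and "fell" refer to the second fit, and each ± beside a difference is its standard error there (3 arrays against 3). That error leaves out the shift shared by the replicate 3 arrays and is drawn towards a trend over all genes. It is thus not the spread of the 3 cultures of a medium. With a constant variance prior the replicate 3 term called 0 members and 2 genes (0.0110%). With the trended prior but no such term 1 member was called, beside 40 of all 18193 genes. Without 1 array of replicate 1 or 2 the second fit called 6 members, beside 373 to 463 of all 18193 genes. Without 1 of replicate 3 it called 16 members, beside 2663 or 2682 genes. Groups that did not overlap were found in 10 members with low sodium above normal (19.6%, against 8.44% of all genes) and in 3 with low sodium below (5.88%, against 9.07%). Among genes with a mean at or above that of the median gene, both directions together, this held for 10 of 35 members, against 26.3% of genes. The difference had the same sign in all 3 replicate numbers in 22 members that were higher (43.1%, against 20.0% of all genes) and in 7 that were lower (13.7%, against 20.7%). The same-sign shares were not taken among genes with such a mean. The median difference of the 51 was a log2 value of 0.07, against -0.01 for all genes, with 0.22, 0.20 and 0.01 in replicates 1, 2 and 3 against 0.00, 0.03 and -0.06. These are RNA levels of whole cultures, in which fewer cells of a type and less RNA per cell cannot be told apart.

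**Figure D1:**
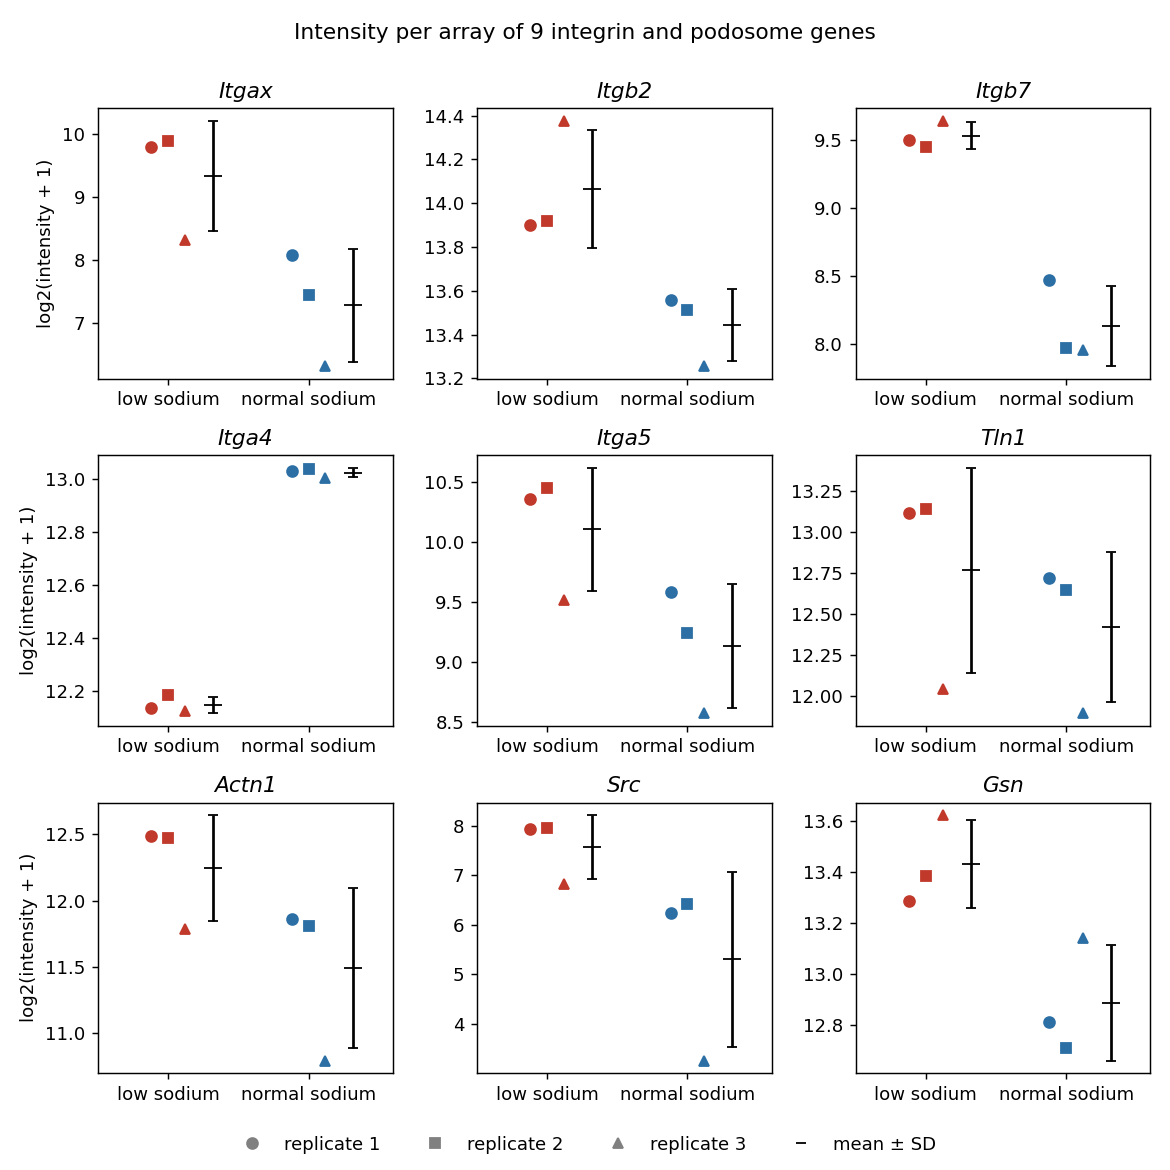
Intensity per array on a log2 scale for the 9 genes called by the fit with a replicate 3 term, with low sodium left of normal sodium in each panel; symbols are the 3 replicates, bars the mean ± SD, and each vertical axis has its own range that does not start at 0. Itga4 is the 1 gene lower in low sodium, and the replicate 3 array lies well below the other 2 of its medium in Itgax, Itga5, Tln1, Actn1 and Src.

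Of 9 leukocyte integrin genes 3 rose, 1 fell and 5 were not called. The median difference was 0.39, or 0.51 in the 6 that reached the median signal. In the second fit 3.78% of all genes rose and 3.81% fell, and 14.8% were called among those with a mean at or above that of the median gene. These shares stand beside the counts of this group and of each group of members below. Itgax encodes alpha X (CD11c), which pairs with beta 2 into a receptor for complement fragments and is a common marker of dendritic cells and of some macrophages. Its log2 intensity was 9.80, 9.88 and 8.32 in low sodium, against 8.08, 7.44 and 6.31 in normal sodium. The lowest low-sodium array, that of replicate 3, thus lay above the highest normal-sodium array. Itgax rose 4.16-fold, a log2 difference of 2.06 ± 0.19 (limma adjusted p = 0.00192 in the second fit and 0.546 in the first), with 1.72, 2.44 and 2.01 in the 3 replicate numbers. With 16 in place of 1 added before the log2 the difference was 1.95.

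Itgb2 encodes beta 2 (CD18), the partner of alpha X, alpha M and alpha L. Its log2 intensity was 13.90, 13.92 and 14.38 in low sodium, against 13.56, 13.51 and 13.26 in normal sodium. The groups did not overlap, and the replicate 3 arrays lay at both extremes. Itgb2 rose by 0.62 ± 0.14 (limma adjusted p = 0.0413), with a difference of 0.37 in replicates 1 and 2 and 1.12 in replicate 3. The call was lost without any 1 of the 4 arrays of replicates 1 and 2, at adjusted p between 0.0815 and 0.109. Without replicate 3 and with the trended prior it was kept (adjusted p = 0.00107).

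Itgam and Itgal, whose products also pair with beta 2, did not pass. Itgam, which encodes alpha M (CD11b), the receptor by which macrophages take up complement-coated particles, had log2 intensities of 10.54, 10.51 and 9.81 in low sodium, against 10.05, 10.07 and 10.42 in normal sodium. Low sodium was above normal in replicates 1 and 2 and below it in replicate 3, and the difference was 0.10 ± 0.20 (limma adjusted p = 0.833). Without replicate 3 and with the trended prior Itgam was called, with a difference of 0.46 (limma adjusted p = 0.00282). Itgal, which encodes alpha L of the ICAM receptor LFA-1, had 8.18, 8.18 and 7.48 in low sodium, against 7.70, 8.00 and 6.95 in normal sodium. It differed by 0.39 ± 0.18 and was higher in low sodium in each replicate number, by 0.48, 0.17 and 0.53, without passing. The beta 2-like gene Itgb2l was below the median signal in both media.

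Itgb7 and Itga4, whose products pair with each other into the receptor for the gut address molecule MAdCAM-1, went in opposite directions. Itgb7 had log2 intensities of 9.50, 9.45 and 9.64 in low sodium, against 8.47, 7.97 and 7.95 in normal sodium. The groups did not overlap, with means of 9.53 ± 0.10 in low sodium and 8.13 ± 0.30 in normal sodium (SD, 3 arrays each). Itgb7 rose 2.63-fold, by 1.40 ± 0.17 (limma adjusted p = 0.00501 in the second fit and 0.366 in the first).

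Itga4 encodes alpha 4 (CD49d), which pairs also with beta 1 into the receptor for VCAM-1 and fibronectin. Its log2 intensity was 12.13, 12.18 and 12.12 in low sodium, against 13.03, 13.04 and 13.00 in normal sodium. The arrays of replicate 3 did not depart from the others here, and the gap between the groups was far larger than the spread within them (SD of 0.03 in low sodium and 0.02 in normal sodium). Itga4 was 1.84-fold higher in normal sodium, and it fell by 0.88 ± 0.06 on the log2 scale (limma adjusted p = 0.000769 in the second fit and 0.366 in the first). It was the 1 member called with a trended prior and no replicate 3 term. Itgae, the other alpha subunit that pairs with beta 7, was below the median signal in both media, at means of 5.31 in low sodium and 4.55 in normal sodium, with a difference of 0.76 ± 0.70 that did not pass. Itga9, related to alpha 4, was below that median too, with a difference of -0.11 ± 0.72.

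Of 9 subunits of RGD-binding integrins, which recognise a short motif in fibronectin, vitronectin and osteopontin, 1 rose, 0 fell and 8 were not called, with a median of 0.06. Itga5, the alpha subunit of the fibronectin receptor, had log2 intensities of 10.36, 10.45 and 9.52 in low sodium, against 9.59, 9.25 and 8.58 in normal sodium. The replicate 3 array was the lowest of each medium, so the groups overlapped while low sodium was higher within each replicate number. Itga5 rose 1.96-fold, by 0.97 ± 0.12 (limma adjusted p = 0.00457 in the second fit and 0.613 in the first), with 0.77, 1.20 and 0.94 in the replicate numbers. Its partner Itgb1, which encodes beta 1, had 11.41, 11.31 and 11.23 in low sodium, against 11.16, 11.10 and 10.90 in normal sodium. The Itgb1 groups did not overlap, and the difference of 0.26 ± 0.07 did not pass (limma adjusted p = 0.0739, or 0.0414 without replicate 3 and with the trended prior).

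Itgav, which encodes alpha v, had log2 intensities of 11.89, 11.80 and 10.83 in low sodium, against 11.61, 11.45 and 10.53 in normal sodium. The difference was nearly the same in each replicate number, at 0.28, 0.34 and 0.30, and its mean of 0.31 ± 0.07 stood just outside the threshold (limma adjusted p = 0.0506, or 0.0211 without replicate 3 and with the trended prior). Itgb3, the beta subunit of the osteoclast vitronectin receptor, was far below the median signal on every array. It had log2 intensities of 3.56, 4.07 and 2.99 in low sodium, against 3.63, 4.44 and 3.24 in normal sodium. Its 1 other probe set was below that median as well, with means of 2.59 in low sodium and 1.93 in normal sodium, and no direction was taken from it.

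Itgb5, which encodes the other common partner of alpha v, had log2 intensities of 10.46, 10.54 and 11.14 in low sodium, against 10.64, 10.72 and 10.56 in normal sodium. Low sodium was lower by 0.19 in both of replicates 1 and 2 and higher by 0.57 in replicate 3, and the mean difference was 0.07 ± 0.15. Itga2b, the platelet integrin alpha subunit, was lower in low sodium in each replicate number, by -0.27, -0.40 and -0.26, without passing (-0.31 ± 0.18). Itga8, Itgb6 and Itgb8 were below the median signal in both media.

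Of 7 subunits that bind laminin or collagen none passed, their median was 0.02, and 4 of them (Itga1, Itga2, Itga10 and Itgb4) were below the median signal. Itga6, an alpha subunit of laminin receptors, had log2 intensities of 8.31, 8.16 and 7.86 in low sodium, against 7.33, 7.46 and 7.58 in normal sodium. These groups did not overlap, and the difference of 0.65 ± 0.19 did not pass (limma adjusted p = 0.0944). It was 0.98, 0.69 and 0.28 in the replicate numbers, and Itga6 was called without replicate 3 and with the trended prior (adjusted p = 0.0205). Itga7, another laminin-binding subunit, had 8.14, 8.55 and 8.62 in low sodium, against 7.83, 7.86 and 8.23 in normal sodium. It differed by 0.46 ± 0.17 and was higher in each replicate number, by 0.31, 0.69 and 0.38. Itga3 differed by 0.02 ± 0.27.

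The 4 genes that share only the symbol gave no call. Itgb1bp1 encodes a protein that binds the beta 1 tail and competes with talin, and it differed by -0.03 ± 0.07. Itgb3bp encodes a centromere protein in spite of its name, and it had 8.29, 8.20 and 7.84 in low sodium, against 8.41, 8.50 and 8.54 in normal sodium. The Itgb3bp groups did not overlap, with a difference of -0.37 ± 0.16 that did not pass. Itgb1bp2 and Itgbl1 were below the median signal. Among all 14 members below it the differences ran from -1.21 (Itgb8 and Itgbl1) to 0.76 (Itgae), and none of the 14 was called.

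**Figure D2:**
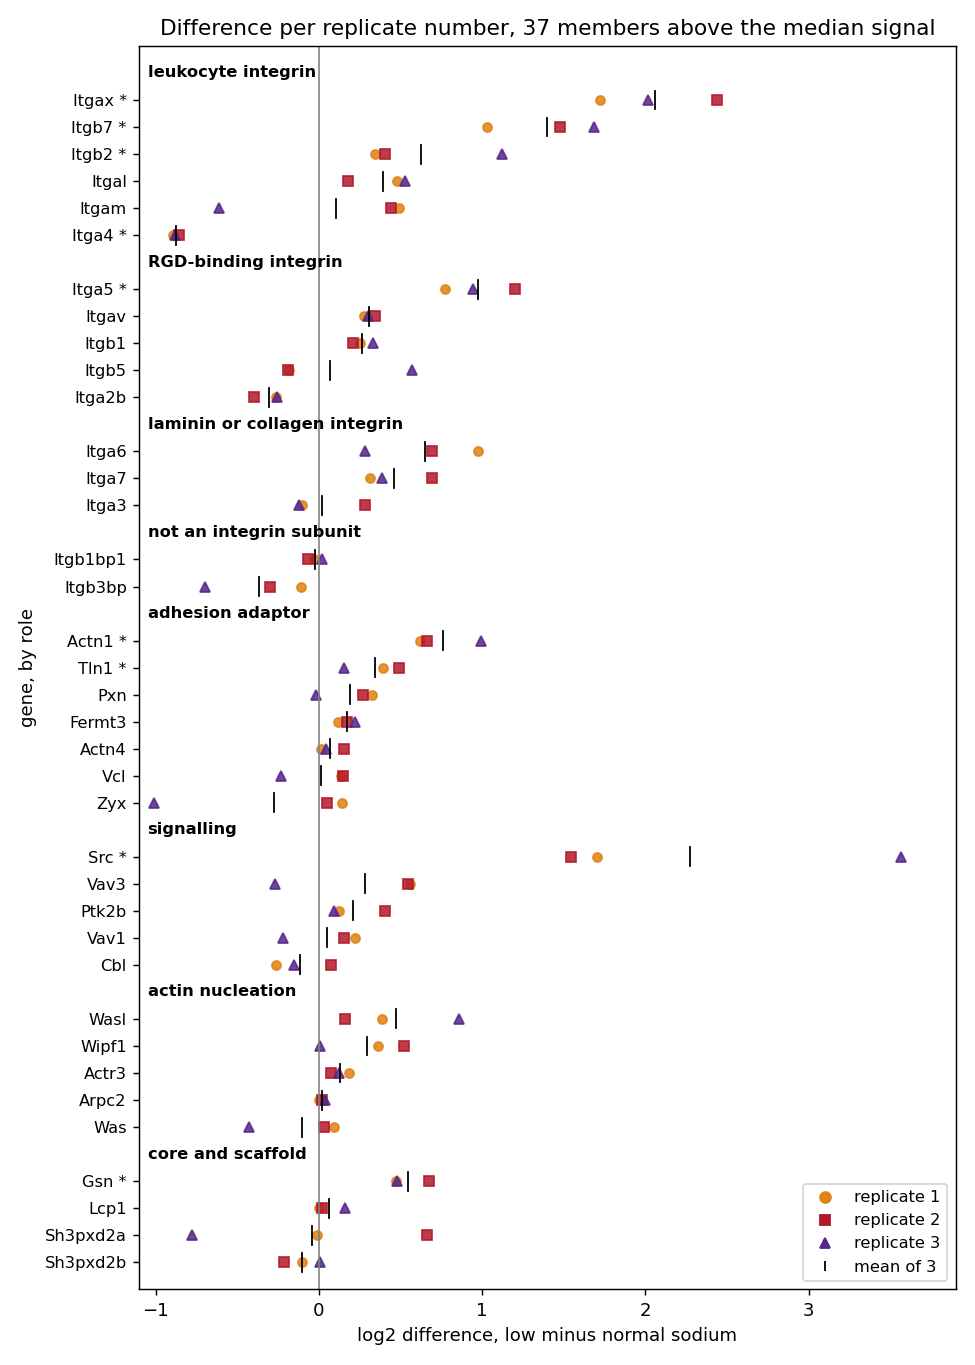
Log2 difference, low minus normal sodium, for each of the 3 replicate numbers (symbols) with their mean (tick), in the 37 members whose higher group mean reached the median signal, ordered by role; a star marks the 9 called by the fit with a replicate 3 term. Itgax, Itgb7 and Itga5 are to the right of 0 and Itga4 to its left in every replicate number, while Itgam, Vav3, Zyx and Sh3pxd2a lie on opposite sides of 0 in different replicates.

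Of 7 adaptors between integrin tails and actin, 2 rose, 0 fell and 5 were not called, with a median of 0.17. Actn1 encodes an alpha-actinin, which bundles actin filaments at adhesion sites. It had log2 intensities of 12.48, 12.47 and 11.79 in low sodium, against 11.86, 11.81 and 10.79 in normal sodium. Low sodium was higher within each replicate number, and the groups overlapped only through the replicate 3 low-sodium array. Actn1 rose 1.69-fold, by 0.76 ± 0.09 (limma adjusted p = 0.00396 in the second fit and 0.684 in the first). In the first fit the difference was 0.41 without the normal-sodium array of replicate 3. Its relative Actn4 differed by 0.07 ± 0.06.

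Tln1 encodes talin, which binds beta subunit tails and activates them. It had log2 intensities of 13.11, 13.14 and 12.05 in low sodium, against 12.72, 12.65 and 11.90 in normal sodium. The spread between replicates was larger than the gap between the media, which showed only within replicate numbers, at 0.39, 0.49 and 0.15. Tln1 rose by 0.35 ± 0.08 (limma adjusted p = 0.0404), and the call was lost without any 1 of the 4 arrays of replicates 1 and 2, at adjusted p between 0.146 and 0.177. In the first fit the difference was 0.08 without the normal-sodium array of replicate 3 and 0.71 without the low-sodium one, and 0.17 and 0.16 without the low-sodium arrays of replicates 1 and 2.

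Fermt3 encodes kindlin-3, the kindlin of blood cells that acts with talin. It had log2 intensities of 13.33, 13.41 and 13.48 in low sodium, against 13.21, 13.24 and 13.26 in normal sodium. The groups did not overlap, and the small difference of 0.17 ± 0.06 did not pass (limma adjusted p = 0.150). Pxn, the paxillin gene, had log2 intensities of 12.73, 12.70 and 12.16 in low sodium, against 12.40, 12.43 and 12.18 in normal sodium. The groups overlapped through replicate 3, and Pxn differed by 0.19 ± 0.08, with 0.32, 0.27 and -0.02 in the replicate numbers. It did not pass, and was called without replicate 3 and with the trended prior (limma adjusted p = 0.00385). Vcl, the vinculin gene, had 10.43, 10.36 and 10.23 in low sodium, against 10.30, 10.21 and 10.46 in normal sodium. Its groups overlapped, and it differed by 0.02 ± 0.10. Zyx, the zyxin gene, had -1.01 in replicate 3 and 0.14 and 0.05 in replicates 1 and 2.

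Of 5 signalling proteins of the podosome 1 rose, and it was Src, the kinase without which mouse osteoclasts form no ruffled border. Its log2 intensity was 7.94, 7.96 and 6.82 in low sodium, against 6.23, 6.41 and 3.26 in normal sodium. The groups did not overlap, and the normal-sodium array of replicate 3 was the dimmest by far. Src rose by 2.27 ± 0.44 (limma adjusted p = 0.0235 in the second fit and 0.616 in the first), or by 1.77 with 16 added in place of 1. The difference was 1.70, 1.54 and 3.56 in the replicate numbers. Its call was lost without any 1 of the arrays of replicates 1 and 2, at adjusted p between 0.0667 and 0.0817, and kept without replicate 3 and with the trended prior (adjusted p = 0.00480). In the first fit the difference was 1.25 without the normal-sodium array of replicate 3. The second Src probe set gave a smaller difference of 0.66 ± 0.34, and the normal-sodium mean of both was below the median signal.

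Ptk2b encodes Pyk2, the focal adhesion kinase relative that works with Src in osteoclasts. It had log2 intensities of 10.89, 11.00 and 10.52 in low sodium, against 10.77, 10.60 and 10.43 in normal sodium. The groups overlapped, and the difference of 0.21 ± 0.09 did not pass. Cbl encodes a ubiquitin ligase that joins the complex of the 2 kinases. It had 10.83, 11.01 and 10.59 in low sodium, against 11.09, 10.93 and 10.74 in normal sodium, groups that overlapped, and it differed by -0.11 ± 0.09. Vav3, the exchange factor that activates Rac in osteoclasts, had 9.65, 9.70 and 9.08 in low sodium, against 9.09, 9.15 and 9.35 in normal sodium. It was higher in replicates 1 and 2, by 0.56 and 0.55, and differed by -0.27 in replicate 3. Without replicate 3 and with the trended prior Vav3 was called (limma adjusted p = 0.00524). Its relative Vav1 had 9.91, 10.10 and 9.52 in low sodium, against 9.69, 9.95 and 9.74 in normal sodium. Low sodium was above normal in replicates 1 and 2 and below it in replicate 3, and Vav1 differed by 0.05 ± 0.13.

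None of the 5 genes for starting actin filaments passed, and their median difference was 0.13. Wasl, which encodes N-WASP, had 9.19, 9.07 and 9.05 in low sodium, against 8.81, 8.91 and 8.19 in normal sodium. The Wasl groups did not overlap, and the difference of 0.47 ± 0.15 did not pass (limma adjusted p = 0.121). Of 3 other Wasl probe sets that reached the median signal in either medium, 2 went the same way and 1 the opposite way, at -0.10. Was, the Wiskott-Aldrich gene of blood cells that is needed for podosomes, had 11.19, 11.20 and 11.04 in low sodium, against 11.10, 11.18 and 11.47 in normal sodium. Its groups overlapped, and it differed by -0.10 ± 0.11. Wipf1 encodes WIP, which holds and protects the Wiskott-Aldrich protein. Wipf1 had 11.27, 11.25 and 10.87 in low sodium, against 10.91, 10.73 and 10.86 in normal sodium. The groups overlapped through replicate 3, and Wipf1 differed by 0.30 ± 0.11, with 0.36, 0.52 and 0.00 in the replicate numbers. It did not pass, and was called without replicate 3 and with the trended prior (limma adjusted p = 0.00651). The Arp2/3 genes Arpc2 and Actr3 differed by 0.02 ± 0.06 and 0.13 ± 0.06. The other probe set of Arpc2 went the opposite way, at -0.24.

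Of 5 genes for the podosome core and its scaffolds 1 rose, and the median was -0.04. Gsn encodes gelsolin, which cuts and caps actin filaments and without which mouse osteoclasts lack podosomes. It had log2 intensities of 13.29, 13.38 and 13.62 in low sodium, against 12.81, 12.71 and 13.14 in normal sodium. The groups did not overlap, and the difference was 0.47, 0.67 and 0.48 in the replicate numbers. Gsn rose 1.46-fold, by 0.54 ± 0.07 (limma adjusted p = 0.00475 in the second fit and 0.603 in the first).

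Lcp1, the gene of the leukocyte actin bundler L-plastin, differed by 0.06 ± 0.07. Sh3pxd2a, the gene of the invadopodia scaffold Tks5, had 8.46, 8.67 and 7.43 in low sodium, against 8.47, 8.01 and 8.21 in normal sodium. It differed by -0.04 ± 0.26 and varied widely, with -0.01, 0.66 and -0.78 in the replicate numbers. Sh3pxd2b, the gene of the related scaffold Tks4, had 10.67, 10.72 and 10.71 in low sodium, against 10.77, 10.94 and 10.70 in normal sodium, and it differed by -0.10 ± 0.08. Cttn, the cortactin gene, had 5.84, 6.14 and 4.31 in low sodium, against 5.36, 5.56 and 5.85 in normal sodium. Its mean was below the median signal in both media, and low sodium was above normal in replicates 1 and 2 and below it in replicate 3.

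Other probe sets of the same gene gave a second reading. Of the 9 called genes, 6 had at least 1 other probe set that reached the median signal in either medium, 14 in all. The 3 others of Itga4 differed by -1.06 to -0.92, the 4 of Gsn by 0.26 to 0.64, the 2 of Tln1 by 0.62 to 0.99, the 2 of Actn1 by 0.57 to 0.83 and the 2 of Itga5 by 0.43 to 0.97. The second probe set of Src and 1 of Itga5 reached the median signal only in low sodium. Their means were 6.40 and 6.44 in low sodium against 5.73 and 5.47 in normal sodium. The probe set used for Src also reached it only in low sodium, with means of 7.57 and 5.30. The direction of these probe sets was favoured by that choice, so the 2 of Src give no second reading. The 14 are given as a description. A dim probe set of Gsn differed by 2.68, and the mean of all Gsn probe sets by 0.89. A dim probe set of Itga4 went the opposite way to its call, at 0.31, and the mean of all Itga4 probe sets was -0.71. A dim one of Itga5 differed by 0.29, and the mean of all Itga5 probe sets by 0.67. The mean of all probe sets gave 0.65 for Tln1 and 1.47 for Src. Itgax, Itgb2 and Itgb7 had 1 probe set each and no such check. Probe sets of a gene share the RNA of the array and are no replicates. With the mean of all probe sets of each gene in place of the brightest, the second fit called 6 of the 9, and Itga5 (adjusted p = 0.0852), Itgb2 (0.0582) and Src (0.0610) lost their call.

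**Figure D3:**
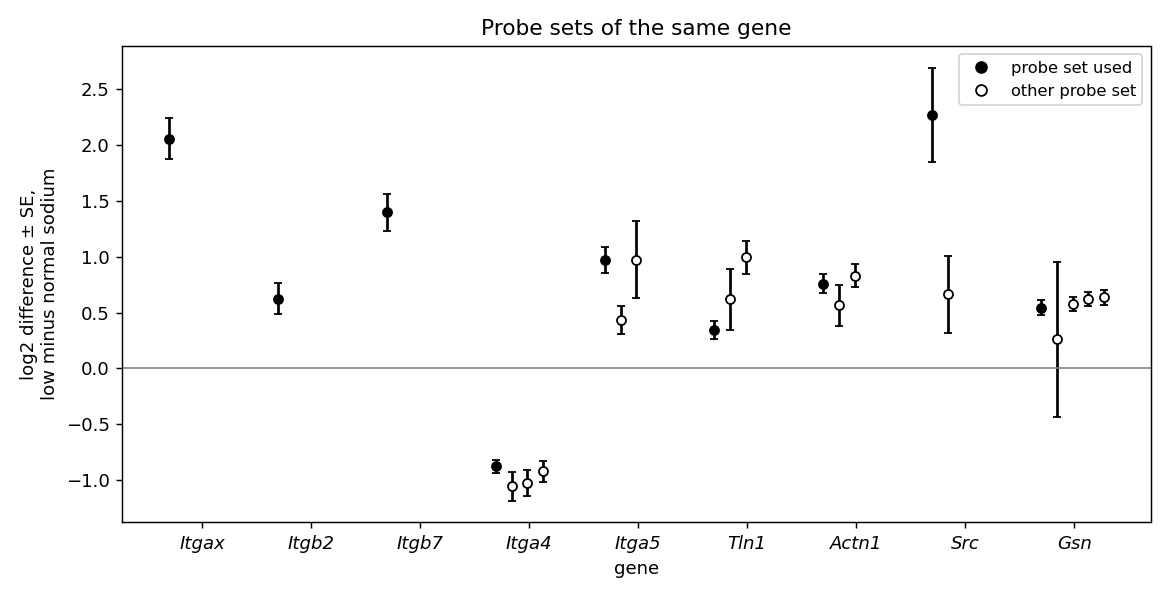
Log2 difference, low minus normal sodium, with its standard error from the fit with a replicate 3 term, for every probe set at or above the median signal of the 9 called genes; filled points are the probe sets used and open points the others. The open points of Itga4 lie between -1.06 and -0.92, and the 2 points of Src differ most in size. Both points of Src and 1 open point of Itga5 reached the median signal only in low sodium.

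Of 8 osteoclast markers 5 rose and 3 (Acp5, Calcr and Oscar) were not called. In that fit 3.78% of all genes rose, and 7.31% of those with a mean at or above that of the median gene. The summed signal of the osteoclast markers lay between log2 intensities of 12.60 and 12.87 in low sodium, against 9.65 and 11.10 in normal sodium. The highest sum, on low-sodium replicate 3, was mostly Atp6v0d2, which alone had a log2 intensity of 12.59 there. Among those that rose were Dcstamp by 1.52 ± 0.15 and Ocstamp by 2.76 ± 0.43, while Oscar had -0.08, -0.19 and -0.23 in the replicate numbers. The groups of Dcstamp and of Ocstamp overlapped. Ocstamp reached the median signal only in low sodium, with means of 7.58 there and 4.82 in normal sodium, and had 5.89 on low-sodium replicate 3. The size of its difference thus depends on the value added before the log2. The macrophage markers summed to between 16.79 and 16.90 in low sodium, against 16.69 and 16.73 in normal sodium. Of these 8, 3 rose (Adgre1 by 0.96, Mertk by 1.47 and Mpeg1 by 0.48) and 5 were not called. Those 5 were Cd68 (0.27), Fcgr1 (0.15), Cd14 (0.04), Lyz2 (0.01) and Csf1r (-0.16). Csf1r was lower in low sodium in each replicate number, by -0.10, -0.09 and -0.29, and its groups did not overlap. The part of the osteoclast and macrophage markers in the integrin and podosome differences was not tested.

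Wider lists of adhesion and actin genes were described in the same fit, in which 3.78% of all genes rose and 3.81% fell. Of all genes with a mean over the 6 arrays at or above that of the median gene 14.8% were called. Of 34 further adhesion adaptors and kinases 8 rose and 2 fell, with a median difference of 0.14, and all 10 were among the 28 with such a mean (35.7%). Lims2 and Lims1 encode the PINCH adaptors of the kindlin-linked ILK complex, and they rose by 1.91 ± 0.25 and 0.69 ± 0.12. Nck1, an adaptor that brings N-WASP to adhesion sites, rose by 0.74 ± 0.11. Csk, the kinase that holds Src inactive by phosphorylating its tail, fell by 0.43 ± 0.08, with log2 means of 10.74 in low sodium and 11.18 in normal sodium. The related exchange factors Arhgef7 and Arhgef6, singled out after their values were seen, differed by 0.78 and -0.58.

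Of 37 genes for actin and its turnover 4 rose and 0 fell, with a median of 0.04, and all 4 were unconventional myosins. They were 4 of 35 genes with such a mean (11.4%). Of all genes with such a mean 14.8% were called, 7.31% as higher in low sodium. Myo1e and Myo1f, membrane-binding myosins found at podosomes, rose by 1.19 ± 0.14 and 0.58 ± 0.10. Myo9b, the third named myosin gene, rose by 0.41 ± 0.07. Myo10, added after its value was seen, rose by 0.62. Diaph3, a formin, differed by -0.42 ± 0.16 without passing.

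Of 22 genes for invadopodia and membrane remodelling 7 rose and 1 fell, with a median of 0.30, which is 8 of 19 genes with such a mean (42.1%). Cd151, a tetraspanin that binds laminin-receptor integrins, rose by 0.54 ± 0.07, and the tetraspanin gene Tspan4 fell by 0.58 ± 0.07. Cd44, the hyaluronan receptor at the podosome core, rose by 0.83 and was singled out after its value was seen. Dnm1 and Mmp14 differed by 1.42 ± 0.34 and 0.99 ± 0.38 without passing. Of 4 Arp2/3 subunits outside the members none passed, and their differences lay between -0.21 for Arpc4 and 0.22 for Arpc5.

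Integrin ligands and counter-receptors were mostly dim, with 8 of 21 at or above the median signal. Of the 21, 2 rose and 0 fell (9.52%, against 7.60% of all genes), with a median of 0.24. Both were among the 5 with a mean at or above that of the median gene. Edil3, a secreted ligand of alpha v integrins, rose by 1.25 ± 0.29, and its difference was 0.70, 0.78 and 2.27 in the replicate numbers. Lamc1, a laminin chain gene, rose by 0.79 ± 0.18. Icam2, a ligand of LFA-1, had -0.43, -0.30 and -2.76 in the replicate numbers and did not pass, and Fbln5 differed by 0.77 ± 0.34 without passing. Fbln5 reached the median signal only in low sodium, with means of 6.34 there and 5.58 in normal sodium, so its direction was favoured by the choice of named genes. By the first limma fit 0 genes of these 5 lists passed. At an unadjusted p under 0.05 it gave 3 of 34 adhesion adaptors and kinases and 2 of 37 actin genes as higher. It also gave 1 of 22 invadopodia genes, 2 of 21 ligands and 0 of 4 Arp2/3 subunits as higher. The adaptor and invadopodia lists had 1 lower gene each, and the others 0. Of all genes 4.29% were higher and 3.86% lower at that threshold.

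**Figure D4:**
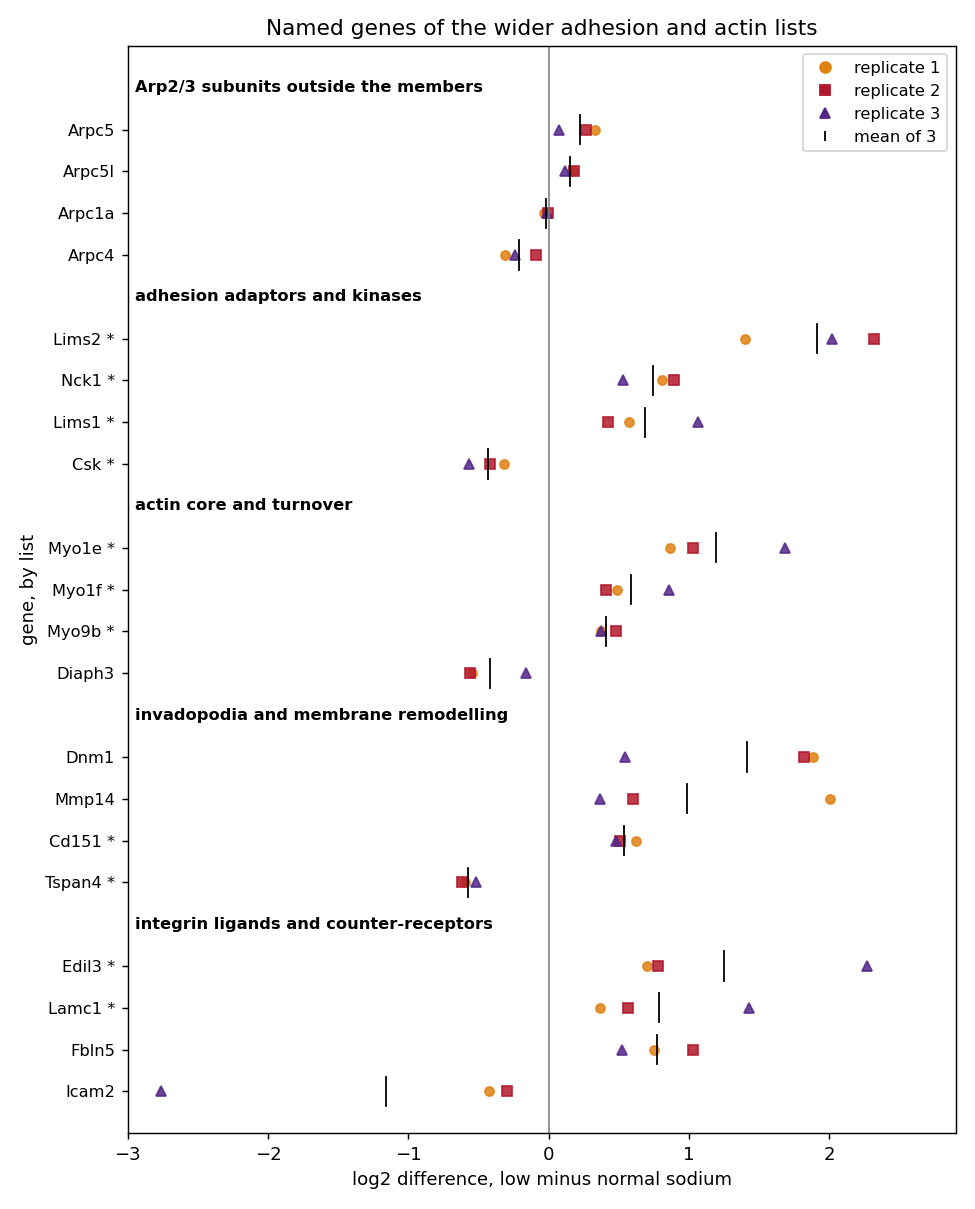
Log2 difference, low minus normal sodium, for each of the 3 replicate numbers (symbols) with their mean (tick), in the named genes of 5 wider lists; a star marks a call in the fit with a replicate 3 term. Lims2 and Myo1e are above 0 in every replicate number, and Csk and Tspan4 are below 0 in every one.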

How the data were processed

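Total RNA of 6 RAW264.7 cultures was labelled with biotin for Affymetrix mouse arrays, per the labels. The deposited table holds 45101 probe sets with linear intensities for each array. The submitters' processing notes name Partek, while the methods of summarisation and scaling are not given in the sources used here. Every array had a trimmed mean of 500.003 once the lowest and highest 2% of values were dropped, so the arrays carry a common scaling. The deposited intensities were turned into log2 values with 1 added to each. The 64 control probe sets were left out, and 34945 probe sets annotated to 1 gene gave 18193 genes. All 51 members matched a RefSeq gene by Entrez identifier.

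The main test was limma 3.58.1 in R 4.3.3 (low minus normal sodium, constant prior, two-sided, Benjamini-Hochberg adjustment over all genes). The second fit added a term for replicate 3 and the eBayes trend. It had been taken up in earlier work on these data after call counts were seen, so its p-values carry less weight than those of the main test. Members, lists and tests were chosen with earlier results of these data known. The p-values of the main test measure differences against the spread between cultures of 1 line. Those of the second fit leave out the shift shared by the replicate 3 arrays, and their variance is drawn towards a trend over all genes. The fits were run on simulated data with known changes and independent noise. Those data held no shift of replicate 3, so they could not show how the replicate 3 term handles one.

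Named members were a fixed set of adhesion and podosome genes, the 10 with the smallest main p among those at or above the median signal, and every member called in either fit. For each wider list they were the 4 genes with the smallest main p at or above that signal. It was enough to reach the signal in the medium with the higher mean, and Mmp14 and Fbln5 reached it in low sodium alone. The fixed set named Ptk2, which was not analysed here. A sixth list is not reported here. Alternatives covered the added value, the scaling, a filter at the 50th percentile, the replicate number, the variance prior, the probe set and leaving out each array. The number of arrays limits the precision. Sequences are RefSeq's on GRCm38.p6, used with no coordinates from the arrays.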

Additional observations from a re-analysis of the deposited data

How the results depend on the processing

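Under the first fit 1 gene of 18193 and 0 of the 51 members passed. The number of genes was 4 with 16 added, 0 with quantile normalisation, 0 with median centring, 16 among genes above the 50th percentile, 0 in replicates 1 and 2 alone, 2 with a replicate 3 term, 40 with the trended prior, and 0 to 3 without 1 array. With the replicate 3 term and trend it was 1382, with 16 added 1287, with the mean of probe sets 822, and without an array of replicates 1, 2 or 3 it was 418, 373 and 2682 (low sodium) or 463, 394 and 2663 (normal sodium), while replicates 1 and 2 alone with trend gave 2705. The members called were 9, 9, 6, 6 to 16 and 16 in these fits, and 1 with the trended prior alone. Several of these alternatives were chosen after seeing the data. At an unadjusted p under 0.05 the 8 members of the first fit (8.15% of all genes) became 17 with the replicate 3 term (16.4%), 18 with its trend (21.7%), 16 in replicates 1 and 2 alone (18.5%), and 3 to 5 without 1 array (5.84% to 7.43%) other than the low-sodium array of replicate 3, without which it was 8 (11.0%). Groups did not overlap in 36 members in replicates 1 and 2 alone (53.0% of all genes) and in 28 without the low-sodium array of replicate 3 (36.5%), against 13 on all arrays (8.44% of all genes higher and 9.07% lower). The members' median became 0.2305 in the first of those settings and ranged from 0.0541 to 0.3071 without 1 array.

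The replicate numbers are not stated to pair the cultures. Deviations of same-numbered arrays correlated at 0.10, 0.08 and 0.24, and replicate 2 correlated best with another number. With the replicate block 0 genes and 0 members were called, and with the block and trend 544 genes and 6 members.

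The median of the Arp2/3 list was -0.0332 with the mean of probe sets and -0.0325 to 0.1715 without 1 array. That of the invadopodia list was 0.364 with the mean of probe sets.

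Of 751 values of 29 described members, 49 changed sign, all in 10 members that were not called. Under the mean of probe sets, in either fit, Cttn was 0.004, Itgb3 0.215, Itgb5 -0.027, Sh3pxd2a 0.534, Sh3pxd2b 0.017 and Vav1 -0.222. In replicates 1 and 2 alone Cttn was 0.533, Itgb5 -0.187, Sh3pxd2a 0.325 and Was 0.060. With quantile normalisation Sh3pxd2a was 0.013. In the first fit without 1 array the values ranged from -0.5117 to 0.4015 for Cttn, -0.0218 to 0.3421 for Itgam, -0.029 to 0.6449 for Itgav, -0.4936 to 0.1043 for Itgb3, -0.147 to 0.1916 for Itgb5, -0.284 to 0.3355 for Sh3pxd2a, -0.0776 to 0.211 for Vav1, -0.0411 to 0.084 for Vcl and -0.1769 to 0.009 for Was. In the second fit without 1 array of replicate 3 Cttn, Itgb5, Sh3pxd2a and Was had the values of replicates 1 and 2 alone. Without the low-sodium or the normal-sodium array of replicate 1 Itgam was -0.0062 or -0.0061 there. Vav1 was -0.0429 without the low-sodium array of replicate 2 and -0.0615 without the normal-sodium array of replicate 1. Vcl was -0.042 without the low-sodium array of replicate 1 and -0.0454 without the normal-sodium array of replicate 2. The cause was not tested.

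With 3 arrays per medium the constant prior left the calls at 0, so the directions above rest on the fit with a replicate 3 term and trend. The summarisation method is not known. Members below the median signal, 14 of 51, carry little information on direction, and log2 differences of dim genes depend on the added value.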
